A study of Mus musculus with 4 samples.

Results

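The CD300 leukocyte receptors described here are 6 mouse genes, Cd300a, Cd300c, Cd300lb, Cd300ld, Cd300lf and Cd300lg. They were taken by symbol, through the Ensembl gene identifier, from a table of 23552 genes, and all 6 had a row. RNA-Seq was performed on c-Kit+ leukemic cells from the bone marrow of moribund C57BL/6 mice with MLL-AF9-induced acute myeloid leukemia (AML), in which a fusion of the MLL and AF9 genes drives the disease. The control group (2 libraries, replicates 3 and 4) carried the control-eGFP overexpression vector, and the SUV-OE group (2 libraries, replicates 2 and 3) carried the Suv39h1-eGFP vector, so that both groups express a fluorescent protein and differ in the histone H3K9 methyltransferase gene Suv39h1. All 4 libraries belong to RNA-seq batch 2. According to the methods, the leukemia had been passaged through serial recipients before Suv39h1 was delivered by virus, 8-week-old female mice were used, and c-Kit+ cells were enriched rather than cloned. The sources used here do not state how many mice went into a library, so p-values measure the spread between these libraries, which may be technical. The family was picked with its expression in this same contrast already known, and its members were thus selected on the FPKM values of these 4 libraries. Differences of the members between SUV-OE and control are therefore given as a description. Counts of members past the thresholds used for all genes are printed without a member's p-value, and nothing is read from them.

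CD300 proteins are single-pass membrane receptors with 1 immunoglobulin-like domain, found mainly on myeloid cells, and several of them bind phospholipids such as the phosphatidylserine exposed by dying cells. They form a paired system. Inhibitory members such as Cd300a and Cd300lf carry tyrosine motifs (ITIMs) that recruit the phosphatases SHP-1 and SHP-2, encoded by Ptpn6 and Ptpn11, whereas activating members such as Cd300lb have short tails and signal through adaptors, among them DAP12 (Tyrobp) and the Fc receptor gamma chain (Fcer1g). Cd300lg, also called nepmucin, is best known as an adhesion molecule of endothelial cells.

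Expression was given as FPKM, which scales the fragments on a gene by its transcript length and by the size of the library. Reads recovered from the FPKM steps numbered 19880417 to 23320052 per library, and for an exon length of 1 kb a count of 3 reads corresponded to 0.154 to 0.178 FPKM (a limit from counting alone). Suv39h1, the overexpressed gene, had FPKM values of 12.4 and 12.4 (control) against 75.3 and 81.2 (SUV-OE). Kit, the marker used for enrichment, had FPKM values of 20.4 and 19.2 (control) against 28.6 and 25.4 (SUV-OE), and all 9 genes of a c-Kit+ myeloid leukemia list, among them Mpo, Fcgr3 and Spi1, were expressed in all libraries. The control libraries differed from each other in short genes. Among 2224 tested genes with less than 1 kb of exons, the median log2(FPKM + 1) was 0.23 higher in control replicate 4 than in control replicate 3, against -0.06 among 6158 genes with 4 kb or more.

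All but Cd300lg of the 6 genes lie in a cluster of 11 protein-coding CD300 genes on chromosome 11, from 114890041 to 115133992 in mm10 (GENCODE M21), a span of 244 kb. Cd300lg (102041509 to 102055620) lies 12.8 Mb away on the same chromosome. Neighbouring copies can share reads, so transcripts were compared in windows of 50 bases. Of Cd300lb, Cd300c and Cd300lg, 0%, 0% and 0.141% of windows also occurred in a transcript of another gene, and of Cd300lf, Cd300a and Cd300ld 2.44%, 3.45% and 3.89% did. The windows that Cd300ld shared were found in Cd300lf and in Cd300ld2 to Cd300ld5, and Cd300a shared windows with Cd300c2, among other genes. For none of the 6 was a window of 150 bases, the stated read length, found elsewhere. The values of the 6 genes thus rest largely on sequence of their own. By contrast, 82.1% of the 50-base windows of Cd300ld3 recurred in other genes, so its FPKM is uncertain.

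The promoters of the 3 members with the highest expression are shown. Each is the 250 bases before the RefSeq start (GRCm38.p6, the mm10 assembly) on the strand of the gene. Positions count back from -1, the base before the start. Capitals mark 2 motifs searched on both strands, TATAAA (the TATA box) and GAGGAAGT (a PU.1-type ETS site, which contains the ETS core GGAA). Cd300lb lies on the minus strand at chr11:114934372-114934621, Cd300a on the plus strand at chr11:114889791-114890040 and Cd300ld on the minus strand at chr11:114989887-114990136.
Cd300lb: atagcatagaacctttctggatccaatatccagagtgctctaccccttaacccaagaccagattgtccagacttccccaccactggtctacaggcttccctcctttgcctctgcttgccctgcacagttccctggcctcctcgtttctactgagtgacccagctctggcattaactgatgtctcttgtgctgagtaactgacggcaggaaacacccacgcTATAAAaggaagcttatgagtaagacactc
Cd300a: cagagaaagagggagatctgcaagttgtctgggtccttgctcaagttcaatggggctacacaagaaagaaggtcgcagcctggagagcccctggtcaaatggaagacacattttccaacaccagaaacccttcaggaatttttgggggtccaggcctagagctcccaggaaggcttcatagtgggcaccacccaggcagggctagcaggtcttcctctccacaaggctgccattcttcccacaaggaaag
Cd300ld: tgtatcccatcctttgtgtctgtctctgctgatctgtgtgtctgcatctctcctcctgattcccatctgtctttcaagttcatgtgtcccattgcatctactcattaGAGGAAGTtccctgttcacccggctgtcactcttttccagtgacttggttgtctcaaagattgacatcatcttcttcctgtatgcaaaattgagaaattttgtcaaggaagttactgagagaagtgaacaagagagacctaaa

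The Cd300lb promoter held TATAAA from -30 to -25, which is present in 12.4% of all 32851 promoters of the same length, and no GAGGAAGT. The Cd300ld promoter held GAGGAAGT from -143 to -136, present in 2.44% of all promoters, and no TATAAA. The Cd300a promoter held neither. Among the 5 members with a promoter entry, TATAAA was found in 2 (Cd300lb and, on the opposite strand from -28 to -23, Cd300lf) and GAGGAAGT in 1. The core GGAA was found in all 5 and in 93.4% of all promoters. A C/EBP-type match (TTGCNNAA) was found in Cd300a, from -214 to -207, and in 9.56% of all promoters, and a RUNX-type match (TGTGGT) in Cd300c, from -120 to -115, and in 14% of all promoters. GATA-type (AGATAA) and AP-1-type (TGACTCA) letters were found in 0 of the 5, and in 9.99% and 4.46% of all promoters. These are matches of letters and were not tested as binding sites or for a part in the SUV-OE difference.

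Cd300lb stood apart from the other members. Cd300lb (ENSMUSG00000063193, chromosome 11, 114922781 to 114934386, minus strand) encodes an activating receptor, also called CLM-7 or LMIR5, that pairs with DAP12. The control libraries had FPKM values of 14.3 and 14.1 (812 and 692 reads), and the SUV-OE libraries 37.6 and 36.9 (1945 and 1912 reads). Both SUV-OE libraries were high, both control libraries were low, and the gap between the groups was far wider than the gap within either. The mean was 14.2 ± 0.177 (SD, n = 2) in control and 37.2 ± 0.4998 (SD, n = 2) in SUV-OE, a ratio of 2.62, and even the lower SUV-OE value was 2.58 times the higher control value. On the log2(FPKM + 1) scale, on which fold changes of low genes are understated, the difference was 1.33 (standard error 0.10). Cells of a type that are more numerous and cells with more of this RNA each cannot be told apart in these bulk libraries.

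**Figure D1:**
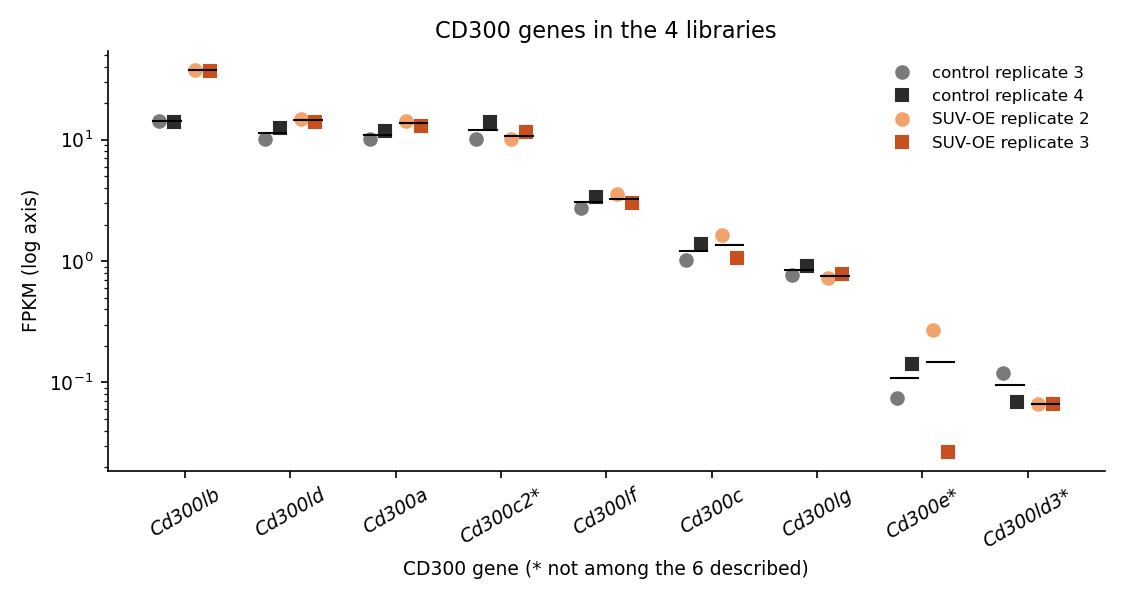
FPKM of the 9 CD300 genes with a row, on a log axis, for each of the 4 libraries (points) with the mean of each group (bars). Cd300lb lies at 14.1 to 14.3 in control and at 36.9 to 37.6 in SUV-OE, while the points of most other genes lie close together or overlap.

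The other members of the cluster on the same strand differed less. Cd300ld (ENSMUSG00000034641, chromosome 11, 114982274 to 114989922, minus strand), which couples to the Fc receptor gamma chain, had FPKM values of 10.2 and 12.4 (control) against 14.9 and 14.0 (SUV-OE). The groups did not overlap, but the lowest SUV-OE value was 1.13 times the highest control value, and the control libraries differed from each other by more than that. Its log2 difference was 0.34 (standard error 0.14). Cd300c (ENSMUSG00000058728, chromosome 11, 114956116 to 114969157, minus strand) was low, with FPKM values of 1.01 and 1.39 (control) against 1.64 and 1.06 (SUV-OE). The groups overlapped, since SUV-OE replicate 3 lay below control replicate 4. Its reads summed to 46 in control (exact Poisson 95% interval 33.7 to 61.4) and to 51 in SUV-OE (38.0 to 67.1), intervals that cover counting error only. Cd300c2, an activating receptor of the same cluster that is not among the 6, had FPKM values of 10.1 and 14.0 (control) against 10.03 and 11.6 (SUV-OE), with overlapping groups. The log2 difference was 0.09 (standard error 0.20) for Cd300c and -0.13 (standard error 0.19) for Cd300c2.

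The inhibitory members had smaller differences than Cd300lb. Cd300a (ENSMUSG00000034652, chromosome 11, 114890041 to 114904654, plus strand), an ITIM receptor for phosphatidylserine and phosphatidylethanolamine, had FPKM values of 10.2 and 11.7 (control) against 14.4 and 13.02 (SUV-OE). The SUV-OE libraries were above both controls, the nearest pair by a factor of 1.11. Its log2 difference was 0.30 (standard error 0.13), close to that of Cd300ld. Cd300lf (ENSMUSG00000047798, chromosome 11, 115116214 to 115133992, minus strand), an ITIM receptor also known as the entry receptor of mouse norovirus, had FPKM values of 2.72 and 3.37 (control) against 3.55 and 3.004 (SUV-OE). The groups overlapped, with the values of the SUV-OE libraries on either side of control replicate 4, and the log2 difference was 0.08 (standard error 0.16).

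Cd300lg (ENSMUSG00000017309), the endothelial member outside the cluster, had FPKM values of 0.770 and 0.909 (control) against 0.721 and 0.781 (SUV-OE), or 83 reads (95% Poisson interval for counting error 66.1 to 103) against 73 (57.2 to 91.8). It had the lowest mean of the 6, its groups overlapped, and its log2 difference was -0.07 (standard error 0.16).

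All 6 genes passed the filter of a mean FPKM of at least 0.5. The thresholds for a differentially expressed gene (DEG) were a limma p-value, adjusted over all 13736 tested genes, under 0.05 and a log2 difference of 1 or more in either direction. Of the 6 genes 1, Cd300lb, met them, and of all tested genes 1.22% did (0.815% with higher expression in SUV-OE and 0.408% with lower). With any 1 of the 4 libraries left out, 0 of all tested genes met the thresholds by limma, Suv39h1 and Cd300lb included (1166 to 3877 genes had an unadjusted p-value under 0.05), so these runs say nothing about the stability of a single call. The log2 difference of Cd300lb was between 1.32 and 1.35 in them. In 3 of the 6 genes both SUV-OE libraries were above both control libraries, and in 0 both were below, while 25.4% and 28.4% of all tested genes were so. Since this contrast chose the family, nothing is read from these counts. The other rows of the family, Cd300e and Cd300ld3, had 1 to 10 and 1 to 2 reads per library, were under the filter and gave no comparison. Cd300ld2, Cd300ld4 and Cd300ld5 had no row, so no FPKM is given for them.

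The members kept 1 order of levels in both groups, with Cd300lb further ahead in SUV-OE. FPKM is scaled by length, so levels of different genes can be set side by side. In control, Cd300lb was highest, and its range was above that of Cd300ld, whose range overlapped that of Cd300a. Cd300lf, Cd300c and Cd300lg followed, each range below the one before it. In SUV-OE the order of the 6 was the same, with Cd300ld and Cd300a again overlapping. Within each library, the FPKM ratio of Cd300lb to Cd300a was 1.41 and 1.20 (control) against 2.62 and 2.83 (SUV-OE). The ratio of Cd300ld to Cd300a stayed between 1.003 and 1.08 in the 4 libraries, and that of Cd300lf to Cd300a between 0.231 and 0.287. Of the summed FPKM of the 6 genes, which was 39.1 and 43.9 (control) against 72.7 and 68.7 (SUV-OE), Cd300lb made up 36.6% and 32.1% against 51.7% and 53.6%. Without Cd300lb the sum was 24.8 and 29.8 against 35.2 and 31.9.

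**Figure D2:**
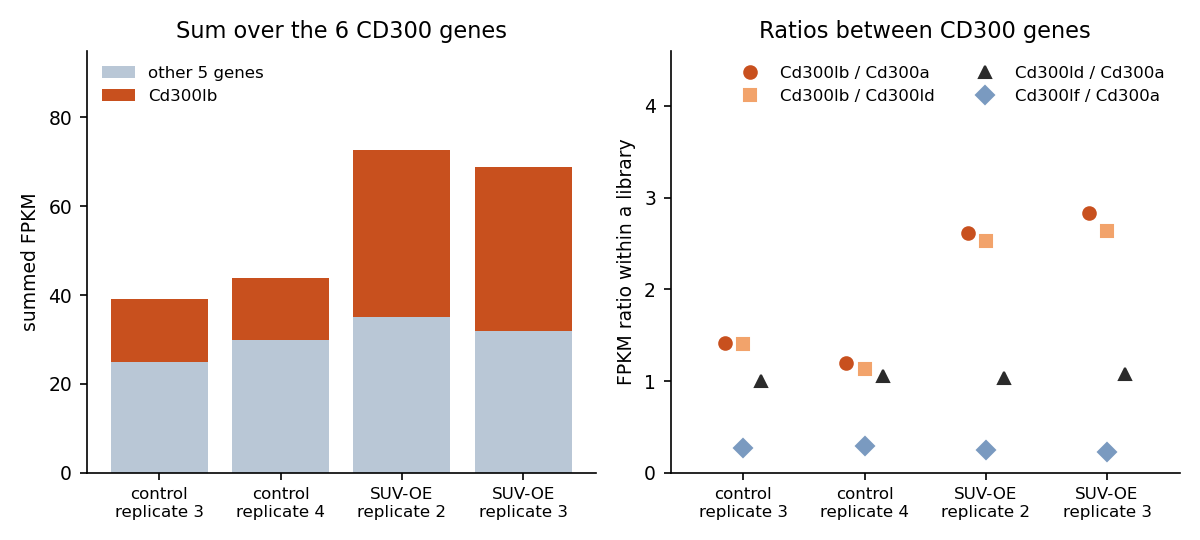
Left, the FPKM of the 6 CD300 genes stacked in each library, with Cd300lb on top and the other 5 genes below, and right, FPKM ratios between CD300 genes within each library. The ratios of Cd300lb to Cd300a and to Cd300ld lie between 1.13 and 1.41 in control and between 2.52 and 2.83 in SUV-OE, whereas the ratio of Cd300ld to Cd300a stays near 1.

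To see whether the surroundings of Cd300lb differed as well, annotated genes within 300 kb of the cluster were examined. Of 27 such genes, 21 had a row and 16 were tested. One met the DEG thresholds, Gm11699, against 0.815% of all tested genes in that direction, and 0 were down-regulated. The median log2 difference of the 16 was 0.09, against -0.02 for all tested genes. Gm11699 (chromosome 11, 114932871 to 114933271, plus strand) is a processed pseudogene inside the first intron of Cd300lb, on the opposite strand, and shares 0 exon bases with it. Control FPKM values were 0.769 and 1.18 (6 and 8 reads) and SUV-OE values 5.62 and 4.63 (40 and 33 reads), with a log2 difference of 1.64 (standard error 0.18, limma adjusted p = 0.0405). The ratio of Gm11699 reads to Cd300lb reads was 0.00739 and 0.0116 (control) against 0.0206 and 0.0173 (SUV-OE). The sources used here name no strand-specific counting, so reads of Gm11699 and of unspliced Cd300lb cannot be told apart. Rab37, a vesicle-trafficking GTPase gene that overlaps Cd300lf on the opposite strand with 0 shared exon bases, had FPKM values of 3.70 and 4.20 (control) against 5.22 and 4.04 (SUV-OE), with overlapping groups.

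**Figure D3:**
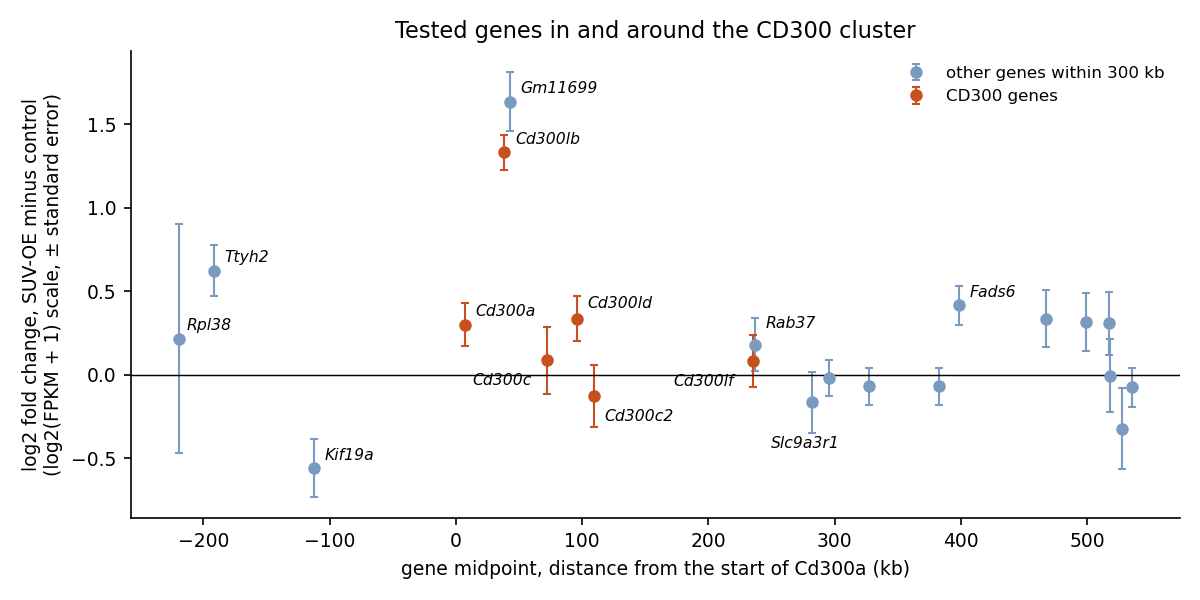
Log2 difference between SUV-OE and control on the log2(FPKM + 1) scale, with its standard error, for the tested genes of the CD300 cluster and within 300 kb of it, by distance of the gene's midpoint from the start of Cd300a. Cd300lb (1.33) and the pseudogene Gm11699 inside it (1.64) lie above the other genes, which range from -0.56 to 0.62.

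The partners through which CD300 receptors signal were examined next. Of 4 adaptor genes, 0 were DEGs by limma (1.22% of all tested genes), 0 had an unadjusted p-value under 0.05 (20.7%) and 0 were called by limma-voom on recovered reads (4.66%). In 0 of the 4 did the groups separate, against 25.4% above and 28.4% below among all tested genes, and with 4 genes nothing is read from these counts. Tyrobp, which encodes the DAP12 used by Cd300lb, had FPKM values of 397 and 862 (control) against 521 and 652 (SUV-OE), so both SUV-OE libraries lay between the controls (log2 difference -0.01, standard error 0.42, limma adjusted p = 0.996). Fcer1g had FPKM values of 130.3 and 252 (control) against 196 and 228 (SUV-OE) (limma adjusted p = 0.749). Hcst, which encodes the adaptor DAP10, had FPKM values of 27.8 and 51.8 (control) against 41.9 and 41.3 (SUV-OE) (limma adjusted p = 0.840). In these 3 genes control replicate 3 was the lowest library and control replicate 4 the highest. Grb2, a docking adaptor, had FPKM values of 109 and 79.6 (control) against 94.9 and 82.9 (SUV-OE) (limma adjusted p = 0.866). The controls thus differed from each other in each adaptor by more than the group means did, and the part of exon length in this, given above for all genes, was not tested here.

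Of 14 genes for kinases and phosphatases downstream of the receptors, all were tested and 0 were DEGs by limma. An unadjusted p-value under 0.05 was found for 3 of the 14, a share near the 20.7% of all tested genes, and limma-voom called 2 of the 14 (Fyn and Fgr), against 4.66% of the 14280 genes it tested. Their median log2 difference was 0.09, against -0.02 for all tested genes, with a range from -0.42 to 0.98. Ptpn6, which encodes the SHP-1 recruited by ITIMs, had FPKM values of 102 and 105 (control) against 100.4 and 103 (SUV-OE), a log2 difference of -0.03 (standard error 0.13, limma adjusted p = 0.905). Btk, a kinase downstream of immune receptors, had FPKM values of 97.8 and 105 (control) against 109.6 and 108 (SUV-OE) (log2 difference 0.10, limma adjusted p = 0.685). Of the Src-family kinase genes Fyn and Fgr, named after their values were seen, Fyn had 0.566 and 0.326 against 1.55 and 1.69, a ratio of means of 3.63 and a log2(FPKM + 1) difference of 0.86 (limma adjusted p = 0.0988). Fgr had a ratio of means of 2.31, with FPKM values of 2.93 and 2.70 (control) against 6.36 and 6.65 (SUV-OE). Its log2 difference of 0.98 (standard error 0.12, limma adjusted p = 0.0471) was just under the fold threshold.

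Cd300lb was then set beside other ITIM-bearing and paired receptors of myeloid cells. Of 44 listed genes, 42 had a row (Lilrb4a and Lilrb4b had none) and 29 were tested. Of the 29, 2 were upregulated DEGs and 0 were down-regulated (0.815% and 0.408% of all tested genes). An unadjusted p-value under 0.05 was found for 12 of the 29, against 20.7% of all tested genes, and limma-voom called 7 of the 33 that it tested, Lair1 as lower, against 4.66%. Their median log2 difference was 0.23, against -0.02 for all tested genes, and 22 of the 29 were above 0. Both SUV-OE libraries were above both controls in 15, or below both in 3, against 25.4% and 28.4% of all tested genes. The DEGs were Pecam1, an ITIM adhesion receptor of platelets, leukocytes and endothelium, and Cd200r1, an inhibitory receptor for CD200. Pecam1 had FPKM values of 16.7 and 23.3 (control) against 70.3 and 64.1 (SUV-OE), a log2 difference of 1.71 (standard error 0.19, limma adjusted p = 0.0405). Cd200r1 had FPKM values of 3.26 and 3.93 (control) against 8.64 and 8.66 (SUV-OE), a log2 difference of 1.07 (standard error 0.13, limma adjusted p = 0.0455). The most highly expressed of the list, Clec12a, an inhibitory C-type lectin, had FPKM values of 95.01 and 130.3 (control) against 102 and 114 (SUV-OE) (limma adjusted p = 0.916). Cd33, an ITIM-bearing Siglec in human cells and a marker of myeloid leukemia, had FPKM values of 57.6 and 79.7 (control) against 107 and 88.2 (SUV-OE) (log2 difference 0.51, limma adjusted p = 0.263). Chosen after its values were seen, Lair1, an inhibitory collagen receptor, had the lowest log2 difference of the list, -0.93 (standard error 0.14, limma adjusted p = 0.0682).

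**Figure D4:**
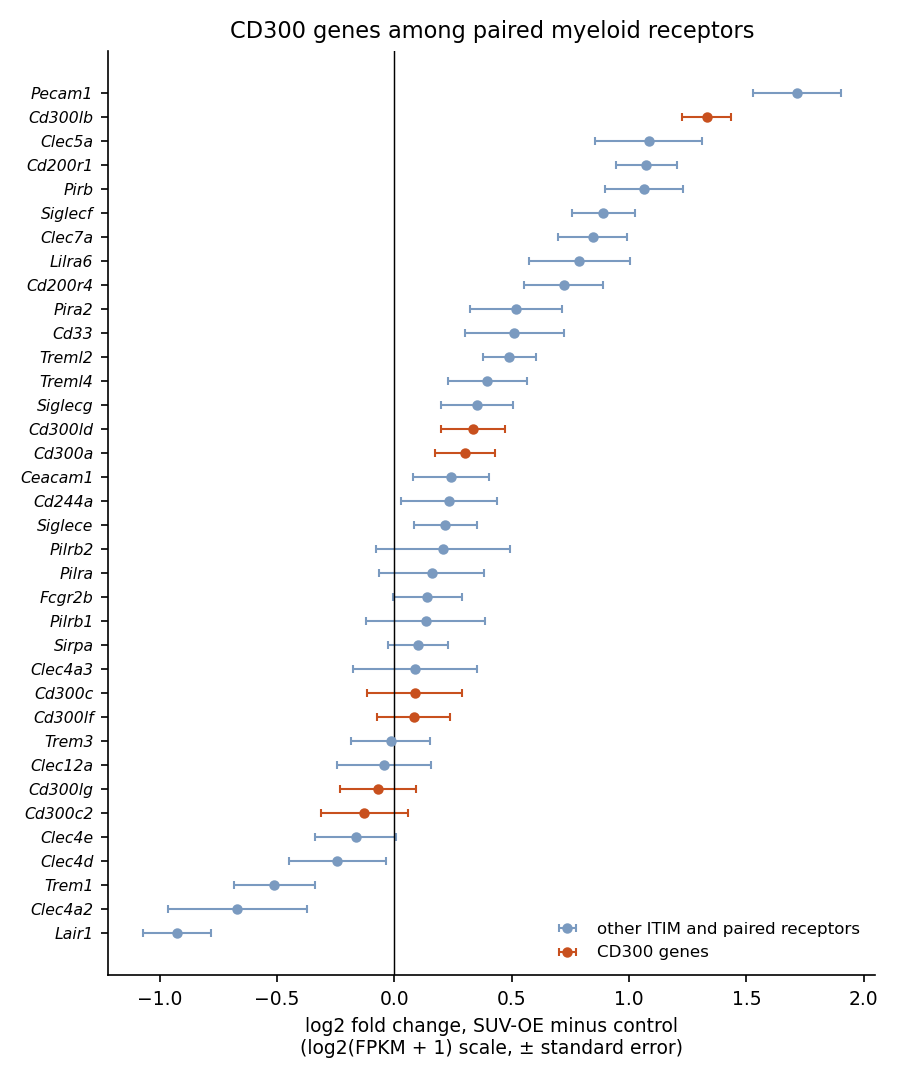
Log2 difference between SUV-OE and control on the log2(FPKM + 1) scale, with its standard error, for the tested CD300 genes and 29 other ITIM-bearing and paired myeloid receptor genes, sorted. Cd300lb (1.33) lies next to Pecam1 (1.71) at the top, while the other CD300 genes lie between -0.13 and 0.34.

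Other receptors and bridging proteins for phosphatidylserine, the lipid that Cd300a recognizes, were mostly low. Of 14 listed genes, 13 had a row and 6 were tested. By limma 1 was a DEG, against 1.22% of all tested genes, and limma-voom called 3 of the 11 that it tested, against 4.66%. The limma DEG was Mfge8, which encodes a secreted bridge between phosphatidylserine and integrins. Mfge8 had FPKM values of 2.02 and 1.82 (control) against 5.17 and 4.82 (SUV-OE), a log2 difference of 1.04 (standard error 0.13, limma adjusted p = 0.0477). Scarb1, a scavenger and lipoprotein receptor gene, had FPKM values of 9.34 and 7.29 (control) against 9.63 and 7.95 (SUV-OE), with overlapping groups, and so had Adgrb1, with 7.75 and 5.90 against 7.22 and 5.59. Chosen after its values were seen, Axl, a receptor tyrosine kinase gene, had 1.11 and 1.39 against 3.99 and 2.95. Both SUV-OE libraries were above both controls in 3 of the 6 tested genes, against 25.4% of all tested genes, and 2 of the 6 had an unadjusted p-value under 0.05, against 20.7%. The median log2 difference of the 6 was 0.20, against -0.02 for all tested genes.

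CD300 receptors are carried by mature myeloid cells, so markers of other cell types that the enrichment could hold were examined beside Cd300lb. Both SUV-OE libraries were above both controls in 11 of 14 tested neutrophil genes, whose summed FPKM was 5310 and 7589 (control) against 9842 and 12019 (SUV-OE), while among all tested genes 25.4% were ordered so. The same held in 8 of 12 tested monocyte and macrophage genes (sum 509 and 861 against 977 and 1152), in 5 of 8 mast cell, basophil and eosinophil genes (96.7 and 160 against 262 and 206), in 9 of 11 B-lymphoid genes (22.1 and 30.8 against 44.0 and 102) and in 3 of 4 dendritic cell genes (70.5 and 77.9 against 89.0 and 92.1). It also held in 3 of 3 tested endothelial genes (19.1 and 27.2 against 77.8 and 69.4, most of it Pecam1, which is also on the paired-receptor list) and in 5 of 8 erythroid genes, whose sum of 18.9 and 117 against 131 and 108 overlapped. For T and NK cell genes it held in 1 of 3 tested genes (75.7 and 115 against 78.5 and 85.3). The DEGs of these lists, all upregulated and given whether or not the naming rule held them, were Ltf, Irf8, Pecam1, Car1 and Car2. By limma-voom on recovered reads, which called 4.66% of all genes it tested, the thresholds were met by 8 of 14 neutrophil, 4 of 11 B-lymphoid, 4 of 8 erythroid and 2 of 5 dendritic cell genes, and by 2 of 16 monocyte and macrophage, 1 of 8 mast cell, basophil and eosinophil, 1 of 8 endothelial and 0 of 3 T and NK cell genes (1 of these 3 had an unadjusted limma p-value under 0.05). In each of these lists 0 genes were at 0 in all libraries. The part of such cells in the level of Cd300lb was not tested.

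The most abundant genes of these lists did not share 1 order of the groups. Ctsg, a granule protease gene, had FPKM values of 2236 and 2787 (control) against 1226 and 1353 (SUV-OE), and Elane, another, had 1548 and 1527 against 1385 and 1825. S100a9, a calprotectin subunit gene, had 275 and 979 against 2589 and 3262. Among the most abundant monocyte genes, Lyz2, the lysozyme gene, had FPKM values of 101 and 177 (control) against 569.9 and 703 (SUV-OE), while Ly6c2 had 281 and 545 against 229 and 269. The 3 most expressed markers of mast cells and their related granulocytes also differed in order. Cpa3, a mast cell protease gene, had 21.3 and 43.5 against 112 and 103. Prg2, an eosinophil granule protein gene, had 15.2 and 47.9 against 75.7 and 37.1, with overlapping groups. Hdc, the histidine decarboxylase gene, had 41.6 and 38.9 against 31.6 and 37.5, with both SUV-OE libraries below both controls.

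The genes whose profile over the 4 libraries was most like that of Cd300lb were ranked by the root mean square difference of log2(FPKM + 1), after subtracting the mean of each gene. The 5 nearest were Mir6997 (0.0230), Gm49339 (0.0232), Gm25579 (0.0248), Hgf (0.0383) and Lrg1 (0.0470). The deposited value of Mir6997 rested on 0 reads in both controls and 2 in each SUV-OE library, and that of Gm25579 on 0 and 3, so these 2 are near the limit of detection. Hgf, the hepatocyte growth factor gene, had FPKM values of 2.26 and 2.20 (control) against 7.74 and 7.10 (SUV-OE). Lrg1, which encodes a secreted glycoprotein of neutrophil granules and liver, had FPKM values of 3.27 and 3.29 (control) against 9.89 and 10.5 (SUV-OE). Gm49339 (chromosome 10, 51480612 to 51496613) had 3.69 and 3.74 against 11.3 and 11.1. It spans the gene of the inhibitory receptor Lilrb4a on the same strand. Lilrb4a is on the paired-receptor list but had no row of its own, so the reads of these genes cannot be told apart.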

How the data were processed

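Libraries were made with the TruSeq RNA v2 kit and read from both ends. The submitters' processing notes name CASAVA 1.8, TopHat2 and the mm10 genome. The deposited values were FPKM, 1 per gene and library, and the methods name Cufflinks. The annotation release was not given in the sources used here. The CD300 genes and all gene lists were chosen with earlier results of these data known.

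The 2 SUV-OE and the 2 control libraries were compared on log2(FPKM + 1) with limma 3.58.1 (R 4.3.3, trend on mean level) over 13736 genes that averaged 0.5 FPKM or more, with Benjamini-Hochberg adjusted p-values over all of them. The count test of the study was not run here. Values of the 6 CD300 genes are descriptive. Lists were counted, not tested as sets. Genes named were the CD300 genes, the adaptors, the 2 most expressed and up to 5 DEGs per pathway list, neighbours that were DEGs, the 5 most like Cd300lb, the 3 most expressed markers of a list, Suv39h1 and Kit. Not all are printed, and Fyn, Fgr, Lair1, Axl, Rab37, Ltf and Car2 were chosen after their values were seen.

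In 78.5% of genes all 4 values were whole reads at the GENCODE M21 exon length (tolerance 0.01), and 4939 genes were whole at another length. These reads gave the depth and were used in limma-voom as an alternative. Both steps were tested on simulated data. Other alternatives were a pseudocount of 0.1, no filter or a mean FPKM of 1, quantile or median-of-ratios scaling, no trend, and leaving out each library. Promoters came from RefSeq (GRCm38.p6), where 5 of the 6 genes had an entry, and transcripts from GENCODE M21.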

Additional observations from a re-analysis of the deposited data

How the results depend on the processing

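No paired analysis was possible because, of the replicate numbers, 3 alone occurs in both groups. Of the 6 CD300 genes, 1 (Cd300lb) met the DEG thresholds, and of all genes 168 did. This contrast chose the family, so nothing is read from the counts of its members given here. Without a filter on low values, limma gave 0 of the 6 and 0 of 23552 genes, where 4177 genes and 1 of the 6 had an unadjusted p-value under 0.05. limma-voom on recovered reads, which tested 14280 genes, called 666, among them 148 of the 168, and 1 of the 6. The cause of these shifts was not tested. With each library left out in turn, which leaves 1 library in a group that is assumed to vary like the other group, limma gave from 0 to 0 DEGs and from 0 to 0 of the 6, with 1166 to 3877 genes and 1 to 3 of the 6 at an unadjusted p-value under 0.05. Suv39h1 was not called in these runs either, so they say nothing about the stability of a single call, and limma-voom was not run with a library left out. The difference of Cd300lb itself ranged from 1.32 to 1.42 (log2) over 11 alternatives. Those of Cd300a (0.21 to 0.40) and Cd300ld (0.21 to 0.47) kept their sign in all 11, and that of Cd300lg (-0.22 to -0.02) in all 10 that tested it. The sign turned in 3 of 11 for Cd300c (-0.09 to 0.27) and in 3 of 11 for Cd300lf (-0.04 to 0.20). Depth limits Cd300c, Cd300lg, Cd300e and Cd300ld3, and 2 libraries per group limit every comparison.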

Other observations

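The depth behind DEG calls on the log2(FPKM + 1) scale was uneven. Cd300lb had 5361 recovered reads over the 4 libraries, and the median DEG had 1215. Of the 168 DEGs, 12 (7.14%) had at most 20 reads in all, 11 of them upregulated, and 9 of the 12 had 0 reads in both control libraries. The fewest was 4 reads, and the median exon length of the 12 genes was 74 bases. limma-voom, which required a mean of at least 10 reads, tested 152 of the 168 DEGs and called 148 of them. Mir6997 and Gm25579, which lay closest to the profile of Cd300lb together with Gm49339, are 2 such genes.

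Outside the CD300 lists, Irf8, a transcription factor of monocyte and dendritic cell development, had FPKM values of 5.22 and 5.01 (control) against 11.6 and 11.04 (SUV-OE), and its log2 difference of 1.01 (standard error 0.11, limma adjusted p = 0.0405) passed the thresholds. Flt3, a cytokine receptor of early progenitors and dendritic cells, had FPKM values of 10.3 and 9.08 (control) against 6.20 and 4.18 (SUV-OE) (log2 difference -0.81, limma adjusted p = 0.133). Irf8 and Flt3 were among the 3 most expressed genes of the dendritic cell list.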
